A study of Mus musculus with 6 samples.

Results

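Lipases release fatty acids from stored or circulating lipid, and the account below follows 10 genes of this kind in mouse liver, namely Lpl, Lipc, Lipg, Lipa, Lipe, Mgll, Pnpla3, Pnpla5, Pnpla7 and Pnpla8. The genes were chosen by name, with earlier results of these data known. Every array probe that carried one of the names was taken, without regard to its signal. This gave 17 of the 41174 probes on the array that were not control spots, for 10 of 27670 named genes. Both Lipa probes were listed as Lip1, a synonym in the RefSeq gene table, and the other genes under their present symbols. A further probe listed under a synonym of Lipe, 4933403G17Rik, lay outside the choice and was above background on 0 arrays. Of the 17 probes, 14 exceeded background by the scanner's flag on every array of at least 1 genotype and were tested. They covered 9 of the 10 genes, and the exception was Pnpla3.

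The livers came from SIRT1 LKO mice, in which the NAD-dependent deacetylase SIRT1 had been deleted in the liver, and from Lox control mice. All were 10-week-old male mice of a 95% C57BL/6 background, fed chow ad libitum and killed at 4 pm. RNA of 2 mice was combined per pool, so that 3 pools stood for 6 mice in each group, and each pool was hybridised to its own 1-colour Agilent whole mouse array. Neither the driver of the deletion nor the exons it removes is named in the sources used here.

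Lipolysis in the liver runs in several compartments. Lipoprotein lipase, hepatic lipase and endothelial lipase are secreted and act on lipoproteins at the vessel wall. Lysosomal acid lipase cleaves cholesteryl esters and triacylglycerol taken up by endocytosis or delivered by lipophagy. Hormone-sensitive lipase and monoacylglycerol lipase act in the cytosol after adipose triglyceride lipase (Pnpla2) has removed the first fatty acid of a triacylglycerol. Proteins with a patatin-like domain share a serine-aspartate catalytic pair with the plant storage protein patatin and hydrolyse triacylglycerol, retinyl esters or phospholipids.

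Several genes were measured by more than 1 probe. The sequences of 3 probes are shown because the size of the genotype difference was not the same as at another probe of the gene. Whether probes of the same gene differ in their response was not tested. Agilent probes are 60 bases long and are given 5′ to 3′ as the scanner files list them, with no base marked. The probe of Lpl below lies 5217 bases upstream of the other Lpl probe, that of Pnpla8 lies 28688 bases upstream of the Pnpla8 probe nearest the 3′ end, and that of Mgll lies 4911 bases upstream of another Mgll probe. The 60 bases of the Mgll probe span 2304 bases of the genome. Positions are those of the file headers, on mouse build mm7, all on the plus strand, and no exon is assigned.
Lpl probe 2, chr8:67355909-67355968: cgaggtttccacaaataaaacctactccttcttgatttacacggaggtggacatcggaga
Pnpla8 probe 3, chr12:42160322-42160381: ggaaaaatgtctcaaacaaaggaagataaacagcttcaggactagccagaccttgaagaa
Mgll probe 2, chr6:88898474-88900777: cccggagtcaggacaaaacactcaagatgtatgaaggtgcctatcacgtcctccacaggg

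All levels are log2 intensity after subtraction of each array's 75th percentile. A value of 0 is therefore as bright as that percentile and a value of -1 is 2-fold dimmer. Probes differ in how strongly they bind, so levels were compared between pools for each probe and never between probes. Differences are SIRT1 LKO minus Lox control from limma, with a standard error, a 95% interval and a p adjusted by Benjamini-Hochberg over the 23591 tested probes. The labels give pools, not single mice, and p-values measure the spread between pools.

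The deposited sources differed for SIRT1 LKO pool 3, which bears on most results below. In the other 5 pools more than 99% of probes had the same intensity, within 1%, in the series' value table and in the scanner file, but in this pool 0.853% did. Scanner values were used throughout, and for the lipase probes the value-table level of the pool or the results with that table and without the pool are given beside them. For other genes these are given where the difference moved by more than 1.5 times or a call changed. Among tested probes the value-table level of this pool was more than 1 log2 unit away from the scanner level in 6.27% of 23577 probes. Among the lipase probes it was so in 4 of 14, namely both Lpl probes, Lipg and Pnpla5. The 75th percentile of intensity lay between 1005 and 1056 in the other 5 arrays and was 1289 in SIRT1 LKO pool 3, and between 52.2% and 66.3% of probes per array were well above background. The 3 controls shared a slide, SIRT1 LKO pools 1 and 2 a second, and SIRT1 LKO pool 3 lay on another, so that each slide held 1 genotype. With the slide as a random block, Lpl probe 1 differed by -1.04 (adjusted p = 0.341) and Lipa probe 1 by -0.55 (adjusted p = 0.362). The brighter Sirt1 probe was 0.06 ± 0.12 in SIRT1 LKO and 0.30 ± 0.06 in Lox control (SD, n = 3 each), a difference of -0.24 (adjusted p = 0.243). The other Sirt1 probe differed by -0.02 (adjusted p = 0.941), by -0.19 in the value table and by -0.13 if pool 3 was left out. Because the removed exons are not known here, the 2 probes do not check the labels.

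The comparison asked whether loss of hepatic SIRT1 was accompanied by altered lipase transcripts. With all pools 0 of the 14 tested lipase probes passed an adjusted p of 0.05, a threshold that 15 of the 23591 probes passed (0.0636%), 0.00424% as higher and 0.0593% as lower in SIRT1 LKO. At an unadjusted p under 0.05 there were 4 of the 14 (28.6%), against 21.2% of all probes, namely Lpl probe 1, Lipa probe 1 and Pnpla8 probes 2 and 3. The SIRT1 LKO pools lay wholly to one side of the control pools in 5 of the 14 (35.7%), against 28.9% of all probes, with Lpl probe 1 and Lipa probe 1 below and the 3 Pnpla8 probes above. With the value-table level of SIRT1 LKO pool 3, 6 of the 14 did not overlap, against 34.1% of all probes. At these numbers the shares lay near those of the whole array. The median difference of the 14 probes was 0.08 and the median of its absolute size 0.42, against 0.02 and 0.19 for all tested probes. Positive differences stood in 8 probes and negative ones in 6.

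**Figure D1:**
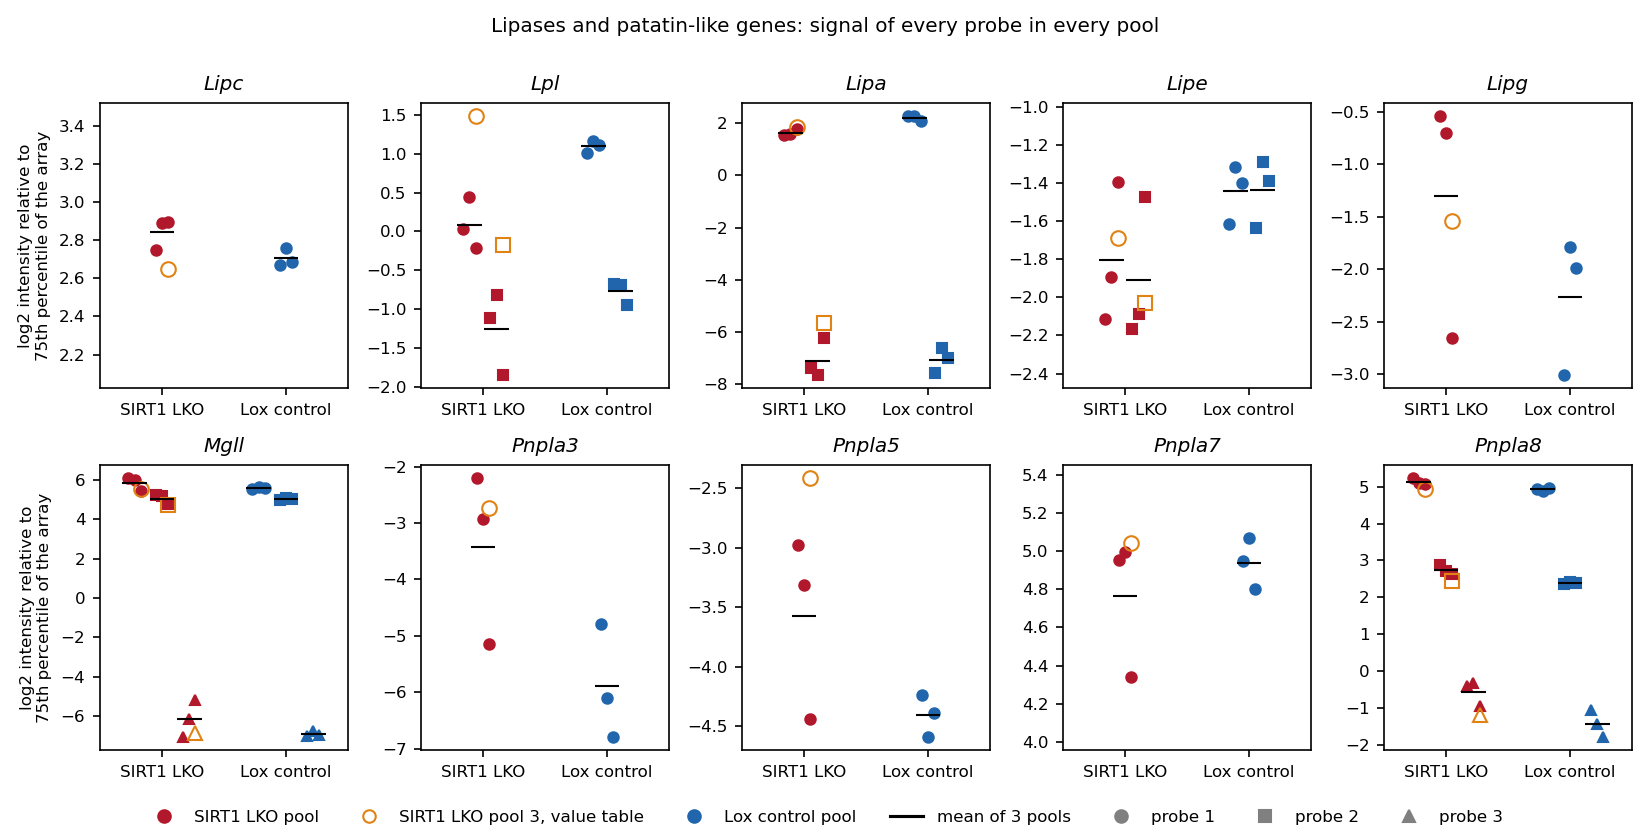
Log2 intensity minus the array's 75th percentile (vertical axis, its own range in each panel) for all 17 probes in every pool, with SIRT1 LKO on the left and Lox control on the right of each panel. Filled symbols are pools, symbol shapes are probes, black bars are means of 3 pools, and open symbols give SIRT1 LKO pool 3 in the value table. For Lpl probe 1 the SIRT1 LKO pools lie between -0.22 and 0.45, below the controls at 1.01 to 1.16, while the open symbol lies at 1.49.

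Among the secreted lipases, Lpl probe 1 was lower in all SIRT1 LKO pools by the scanner files, but not with the value-table level of pool 3. Lipoprotein lipase hydrolyses triacylglycerol of chylomicrons and very-low-density lipoprotein. It is made mainly in adipose tissue, muscle and macrophages, and little in adult hepatocytes. Lpl probe 1 (chr8:67361126-67361185) was 0.03, 0.45 and -0.22 in SIRT1 LKO pools 1, 2 and 3, against 1.01, 1.16 and 1.12 in Lox control pools 1, 2 and 3. All 3 SIRT1 LKO pools were below all 3 controls. The means were 0.09 ± 0.34 in SIRT1 LKO and 1.10 ± 0.08 in Lox control (SD, n = 3 each), a 2.01-fold lower signal (log2 difference -1.01, SE 0.18, interval -1.43 to -0.59, adjusted p = 0.0792). Without SIRT1 LKO pool 3 the difference was -0.86 (adjusted p = 0.0512). With the value table it was -0.44 (adjusted p = 0.460), and the groups overlapped, since pool 3 at 1.49 was then above every control.

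The upstream Lpl probe 2, whose sequence is shown above, gave a smaller difference. It was -1.11, -0.82 and -1.86 in SIRT1 LKO pools 1, 2 and 3, against -0.67, -0.69 and -0.96 in the Lox control pools. SIRT1 LKO pool 2 lay inside the range of the controls. The difference was -0.49 (SE 0.26, interval -1.13 to 0.14, adjusted p = 0.328), and -0.20 without SIRT1 LKO pool 3. It turned to 0.07 with the value table, where pool 3 was -0.18. Thus both Lpl probes were lowest in the scanner array of pool 3 and highest of all pools in its value-table column.

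Cell types other than hepatocytes can supply Lpl transcript, and in whole liver fewer cells of a type and less RNA per cell cannot be told apart. Of 12 macrophage markers tested, 11 were lower in SIRT1 LKO by the scanner files and 0 passed the threshold, with a median difference of -0.19. With the value table only Vsig4 (-0.20) and Lyz2 (-0.12) were lower, and the others were higher, from Csf1r (0.03) to Marco (0.58). Without pool 3, Clec4f, Marco, Timd4, Cd5l and C1qc were higher, by at most 0.24, and the others lower. The summed linear level of the macrophage markers, in multiples of the 75th percentile, was 86.0 to 107 in SIRT1 LKO and 78.5 to 132 in Lox control. By the scanner files the groups thus overlapped. For SIRT1 LKO pool 3 the sum was 86.0 by the scanner file and 167 by the value table, above every other pool, as was Lpl. Of 10 adipose markers, 4 were tested, of which 3 were lower, with a median of -0.40 and 0 past the threshold. Their sum was 98.5 to 162 in SIRT1 LKO and 189 to 201 in Lox control, without overlap, and most of it was carbonic anhydrase 3 (Car3), which mouse liver also expresses. In pool 3 this sum was 98.5 by the scanner file and 130 by the value table. Of the others tested, Cfd (adipsin) differed by -3.44 (adjusted p = 0.114), without overlap of the groups by either source of pool 3. Its probe was above background on 2 of 3 SIRT1 LKO arrays and 3 of 3 Lox control arrays. Fabp4 went the other way, by 0.29 (adjusted p = 0.187), with SIRT1 LKO above every control by either source of pool 3. Pparg differed by -0.23 (adjusted p = 0.291), by -0.51 with the value table and by -0.16 without pool 3. Adipoq and Retn were above background on 1 array of each genotype, and Lep, Plin1, Adrb3 and Lgals12 on no array. The part of these markers in the Lpl result was not tested. Striated muscle markers were near background, with 1 of 6 tested and Ckm, Mb and Myl1 above background on no array.

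Lipc encodes hepatic lipase, which hepatocytes secrete and which hydrolyses lipids of remnants and high-density lipoprotein. Its probe (chr9:70845219-70848895, minus strand) was 2.75, 2.89 and 2.90 in SIRT1 LKO pools 1, 2 and 3, against 2.67, 2.76 and 2.69 in the Lox control pools. SIRT1 LKO pool 1 lay within the control range, and the groups overlapped. The difference of 0.14 did not pass (SE 0.09, interval -0.08 to 0.36, adjusted p = 0.421). It was 0.06 with the value table and 0.11 without SIRT1 LKO pool 3. By the scanner files the summed levels of hepatocyte markers overlapped, at 1934 to 2375 in SIRT1 LKO and 1764 to 2224 in Lox control. Of these markers 7 of 10 were higher in SIRT1 LKO (median 0.13, 0 called). For SIRT1 LKO pool 3 the sum was 1934 by the scanner file and 2460 by the value table. With the latter the SIRT1 LKO pools lay above every control.

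Lipg encodes endothelial lipase, which acts mainly on phospholipids of high-density lipoprotein. Its single probe, on chromosome 18, was -0.54, -0.70 and -2.65 in SIRT1 LKO pools 1, 2 and 3, against -3.01, -1.78 and -1.98 in the Lox control pools. SIRT1 LKO pools 1 and 2 were above every control, and pool 3 was below the controls 2 and 3. The means were -1.30 ± 1.18 in SIRT1 LKO and -2.26 ± 0.66 in Lox control, and the difference of 0.96 had a wide interval (SE 0.61, -0.51 to 2.43, adjusted p = 0.404). It was 1.33 with the value table (adjusted p = 0.106), where pool 3 at -1.54 also lay above the controls, and 1.64 without the pool (adjusted p = 0.0667). The summed level of endothelial markers overlapped between the groups, at 25.9 to 30.4 in SIRT1 LKO and 25.4 to 31.0 in Lox control, with 6 of 10 higher and 4 lower (median 0.03, 0 called).

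Lipa, lysosomal acid lipase, was lower in all SIRT1 LKO pools by either source of pool 3, short of the threshold with all pools. Its probe 1 (chr19:34194531-34194590, minus strand) was 1.55, 1.60 and 1.78 in SIRT1 LKO pools 1, 2 and 3, against 2.29, 2.26 and 2.07 in the Lox control pools. All SIRT1 LKO pools were below all controls, and remained so with the value-table level of pool 3, 1.85. The means were 1.65 ± 0.12 in SIRT1 LKO and 2.21 ± 0.12 in Lox control (SD, n = 3 each), a 1.48-fold lower signal (log2 difference -0.56, SE 0.11, interval -0.83 to -0.29, adjusted p = 0.0880). With the value table it was -0.54 (adjusted p = 0.0679). Without SIRT1 LKO pool 3 the difference was -0.63 and passed the threshold (adjusted p = 0.0492), a setting in which 2.96% of all probes passed. Over 16 alternative settings it ranged from -0.63 to -0.52. A second probe assigned to Lipa, 29278 bases upstream, was above background on no array and was not tested.

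Lipe encodes hormone-sensitive lipase, which cleaves diacylglycerol and cholesteryl esters and is best known from adipocytes and steroid-producing cells. Lipe probe 2 (chr7:22170615-22170674, minus strand) was -2.17, -2.08 and -1.47 in SIRT1 LKO pools 1, 2 and 3, against -1.63, -1.29 and -1.39 in the Lox control pools. SIRT1 LKO pools 1 and 2 lay below every control, and pool 3 within the control range. The difference was -0.47 (SE 0.21, interval -0.97 to 0.02, adjusted p = 0.253). Lipe probe 1, which starts 146 bases away, gave -2.11, -1.90 and -1.40 in SIRT1 LKO and -1.61, -1.32 and -1.40 in Lox control, the same arrangement of pools. Its difference was -0.36 (SE 0.20, adjusted p = 0.340). With the value table pool 3 also lay below the controls for both probes, and the differences were -0.66 for probe 2 (adjusted p = 0.0556) and -0.46 for probe 1 (adjusted p = 0.113). Without the pool they were -0.69 for probe 2 (adjusted p = 0.0545) and -0.56 for probe 1 (adjusted p = 0.0675).

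Mgll encodes monoacylglycerol lipase, which releases the last fatty acid and also degrades the endocannabinoid 2-arachidonoylglycerol. Mgll probe 1 (chr6:88903385-88903444) was 6.12, 6.02 and 5.44 in SIRT1 LKO pools 1, 2 and 3, against 5.55, 5.66 and 5.59 in the Lox control pools. SIRT1 LKO pools 1 and 2 were above every control and pool 3 below every control, so that the difference of 0.25 (SE 0.19, interval -0.19 to 0.70, adjusted p = 0.463) averaged pools on opposite sides. Without pool 3 it was 0.47 (adjusted p = 0.0551). Mgll probe 2, shown above, had the same order of pools over a smaller range, with 5.22, 5.17 and 4.79 in SIRT1 LKO and 5.0, 5.08 and 5.02 in Lox control. Its difference was 0.03 (SE 0.14, interval -0.30 to 0.36, adjusted p = 0.922). It was 0.16 without pool 3. The value table held pool 3 at 5.56 for probe 1 and at 4.76 for probe 2, with differences of 0.30 and 0.02. Mgll probe 3 was above background on 1 of 3 SIRT1 LKO arrays and 0 of 3 Lox control arrays, and no fold is given for it.

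**Figure D2:**
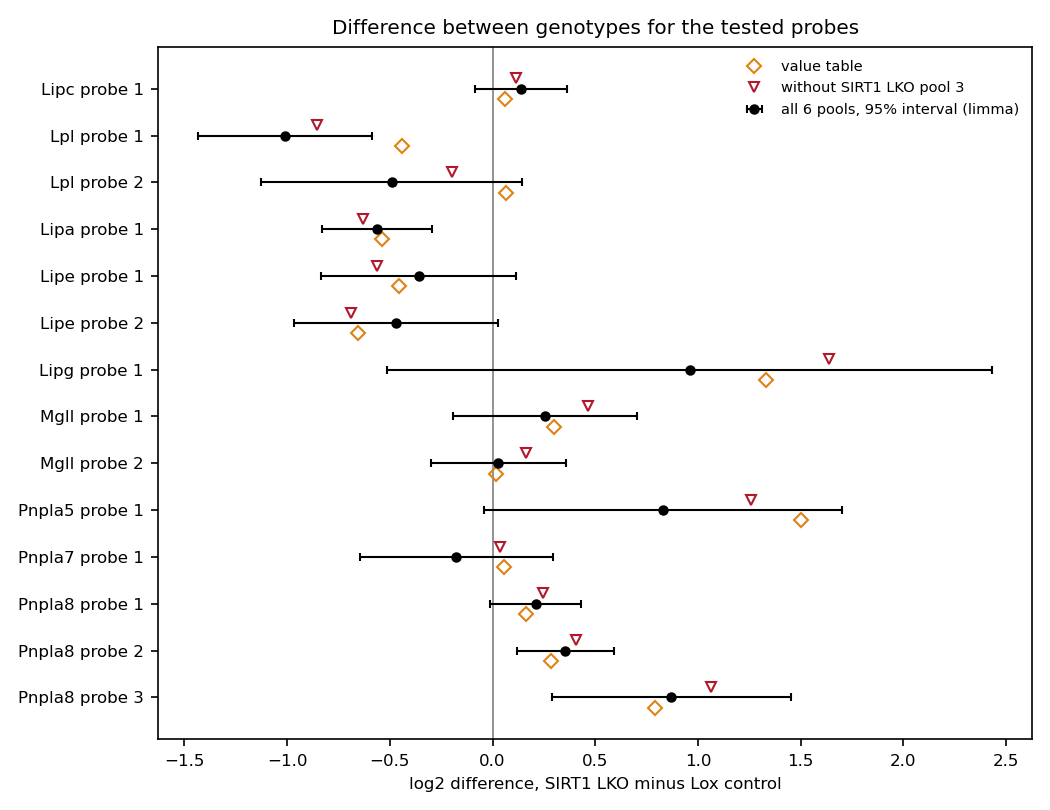
Log2 difference, SIRT1 LKO minus Lox control (horizontal axis), for the 14 tested probes (rows). Black points with bars are the fit to all 6 pools with its 95% interval, diamonds the fit to the value table, and triangles the fit without SIRT1 LKO pool 3. The Lipa marks lie close together between -0.63 and -0.54, whereas those of Pnpla5 run over 0.83, 1.26 and 1.5.

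Among the patatin-like genes, Pnpla8 was higher in SIRT1 LKO at all 3 of its probes, none past the threshold. Pnpla8 is a calcium-independent phospholipase A2 of mitochondria and peroxisomes. Probe 3 (chr12:42160322-42160381), the upstream probe shown above, was -0.40, -0.33 and -0.94 in SIRT1 LKO pools 1, 2 and 3, against -1.04, -1.44 and -1.79 in the Lox control pools. The SIRT1 LKO pools lay above the controls, with pool 3 nearest to them. The means were -0.55 ± 0.34 in SIRT1 LKO and -1.42 ± 0.38 in Lox control, a 1.83-fold higher signal (log2 difference 0.87, SE 0.24, interval 0.29 to 1.45, adjusted p = 0.131).

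Near the 3′ end, 2 Pnpla8 probes that start 420 bases apart showed smaller differences of the same sign. Probe 2 (chr12:42188590-42188649) was 2.88, 2.72 and 2.64 in SIRT1 LKO, against 2.37, 2.41 and 2.39 in Lox control. The controls differed among themselves by less than 0.1, and the difference was 0.36 (SE 0.10, interval 0.12 to 0.59, adjusted p = 0.131). Probe 1 (chr12:42189010-42189069) was 5.24, 5.10 and 5.07 in SIRT1 LKO and 4.94, 4.89 and 4.95 in Lox control, a difference of 0.21 (SE 0.09, interval -0.01 to 0.43, adjusted p = 0.254). With the value table the differences were 0.79, 0.29 and 0.16 for probes 3, 2 and 1 (adjusted p = 0.152, 0.211 and 0.349). Pool 3 then lay within the control range for probes 3 and 1 and above the controls for probe 2. Without pool 3 the differences were 1.06, 0.41 and 0.24 for probes 3, 2 and 1 (adjusted p = 0.0599, 0.0630 and 0.141). Whether the probes differ from each other in their response was not tested.

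Pnpla5 and Pnpla3 are neighbours on chromosome 15, 44601 bases apart on opposite strands in GRCm38.p6. Pnpla5 is a lipid-droplet hydrolase with triacylglycerol lipase activity. Pnpla3 encodes adiponutrin, a lipid-droplet protein that in mouse liver is induced by feeding through the lipogenic factors SREBP-1c and ChREBP. Pnpla5 (chr15:84195009-84195068 on mm7, minus strand) was -2.98, -3.31 and -4.43 in SIRT1 LKO pools 1, 2 and 3, against -4.23, -4.59 and -4.39 in the Lox control pools. SIRT1 LKO pools 1 and 2 lay above the controls and pool 3 among them. The signal was dim, above background on 3 of 3 SIRT1 LKO arrays and 2 of 3 Lox control arrays, so that the probe entered the test only through the SIRT1 LKO group.

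For Pnpla5 the difference was 0.83 with all pools (SE 0.36, interval -0.04 to 1.70, adjusted p = 0.252). With the value table, where SIRT1 LKO pool 3 was -2.41, it was 1.5 and passed the threshold (adjusted p = 0.0489), as did 1.31% of all probes. Without the pool it was 1.26 (adjusted p = 0.0462). Both calls rest on the entry through the SIRT1 LKO group, and a filter asking for signal above background on all 6 arrays gives the probe no value. Pnpla3 (chr15:84271714-84271773, plus strand) was -2.20, -2.92 and -5.14 in SIRT1 LKO pools 1, 2 and 3, against -4.79, -6.10 and -6.80 in the Lox control pools. Pools 1 and 2 were again the highest, and pool 3 lay below the highest control. Since the probe was above background on 2 of 3 SIRT1 LKO arrays and 1 of 3 Lox control arrays, it did not enter the test. The means were -3.42 ± 1.53 in SIRT1 LKO and -5.90 ± 1.02 in Lox control, and the value-table level of pool 3 was -2.74, above the controls.

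The sequences before the starts of these neighbours are shown because both had their highest signals in SIRT1 LKO pools 1 and 2. They are credited to RefSeq, build GRCm38.p6, and run 5′ to 3′ on the strand of the gene. The Pnpla5 stretch holds the 250 bases before its start. For Pnpla3 it is the 210 bases of that window which lie outside the gene as the RefSeq gene table gives it. Capitals mark the E-box CACGTG and the CCAAT box, read as CCAAT or ATTGG. The sterol regulatory element was searched as TCACNCCAC, where N is any base, and all motifs were searched on both strands of the 250 bases, with no overlap between them.
Pnpla5, chr15:84123176-84123425, minus strand: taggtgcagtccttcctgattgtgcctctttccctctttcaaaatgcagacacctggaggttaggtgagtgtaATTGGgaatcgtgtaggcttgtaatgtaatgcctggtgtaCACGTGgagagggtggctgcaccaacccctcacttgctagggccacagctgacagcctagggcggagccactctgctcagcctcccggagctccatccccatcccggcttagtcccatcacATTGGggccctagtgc
Pnpla3, chr15:84167566-84167775, plus strand: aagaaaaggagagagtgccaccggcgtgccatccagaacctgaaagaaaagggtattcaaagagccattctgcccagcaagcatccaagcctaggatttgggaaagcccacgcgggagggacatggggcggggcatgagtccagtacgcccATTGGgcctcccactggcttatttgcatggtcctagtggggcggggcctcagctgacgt

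The 8 genes looked up, which leave out Lpl and Lipg, had 11 windows, since some have more than 1 start. The windows of Lipe and the downstream windows of Mgll and Lipc lay wholly inside the gene. CACGTG occurred in 4 of the 11 windows (of Lipe, Mgll, Pnpla5 and Pnpla7), against 6.02% of 32851 promoter windows of that length. CCAAT occurred in 5 of the 11 (of Lipa, Lipc, Pnpla3 and Pnpla5), against 33.8%, and TCACNCCAC in 0 of the 11, against 1.05%. These matches describe the letters only.

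Pnpla7, a lysophospholipase that cleaves lysophosphatidylcholine, had no difference distinguishable from 0. Its probe (chr2:25060752-25060983) was 4.95, 5.0 and 4.34 in SIRT1 LKO pools 1, 2 and 3, against 4.95, 5.07 and 4.80 in the Lox control pools. Pool 3 was the lowest array, and the other SIRT1 LKO pools lay among the controls. The difference was -0.18 (SE 0.20, interval -0.64 to 0.29, adjusted p = 0.634), 0.06 with the value table and 0.04 without pool 3.

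By the scanner files, SIRT1 LKO pools 1 and 2 lay on the same side of every control while pool 3 did not in 6 of the 14 tested probes, against 22.8% of all tested probes. The 2 pools were above in Lipg, Mgll probes 1 and 2 and Pnpla5, and below in both Lipe probes. The untested Pnpla3 probe had them above. For each member whose brightest probe was tested and varied by an SD of at least 0.3 over the 6 arrays, the 3 tested probes of other genes with the smallest root mean square difference in centred log2 signal were named. For Lipg these were Acacb (0.184), Elovl6 (0.226) and Dusp6 (0.247), of which Acacb and Elovl6 encode enzymes of malonyl-CoA formation and fatty acid elongation. For Pnpla5 they were Ccdc69 (0.107), Kdelr2 (0.116) and Gadd45a (0.116). For Lpl they were Capn3 (0.137), Dusp18 (0.138) and Wfdc3 (0.146). Lipa was nearest Keap1 (0.0264), Hmg20b (0.0463) and Abcb1b (0.0529), and Lipe nearest Gnaq (0.0389), Ccar1 (0.0480) and Lrrc20 (0.0568). These are likenesses over 6 arrays that share slides and genotype.

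The 13 genes of a lipogenic list, which are targets or factors of the SREBP-1c and ChREBP programme, had a median difference of 0.27, with 9 higher and 4 lower. None passed with all pools, where 0.0812% of 16018 genes represented by 1 probe each did, and 0 of 13 groups were without overlap, against 28.9% of genes. With the value-table level of pool 3 the SIRT1 LKO pools lay above the controls in 7 of the 13, where 34.1% of genes did not overlap in either direction. Acacb, acetyl-CoA carboxylase 2, was 3.73, 3.56 and 1.19 in SIRT1 LKO pools 1, 2 and 3, against 1.36, 2.25 and 2.01 in the Lox control pools. Pool 3 was the lowest of all arrays, and its value-table level was 3.59. The difference was 0.95 over all pools (adjusted p = 0.451). It was 1.75 in the value table (adjusted p = 0.0455), and 1.77 if the pool was left out (adjusted p = 0.0492). Pklr, liver pyruvate kinase, had a difference of 0.47 (adjusted p = 0.273). The value table gave 0.71 for it (adjusted p = 0.0455), and leaving out the pool gave 0.72 (adjusted p = 0.0477). For Acly, ATP citrate lyase, it was 0.61 (adjusted p = 0.468), 1.14 in the value table (adjusted p = 0.0487) and 1.15 if the pool was left out (adjusted p = 0.0512). The list median was 0.56 with the value table, with 3 genes past the threshold (Acacb, Acly and Pklr). It was 0.72 without the pool, with 2 (Acacb and Pklr). Of all probes, 1.31% passed with the value table and 2.96% without the pool.

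**Figure D3:**
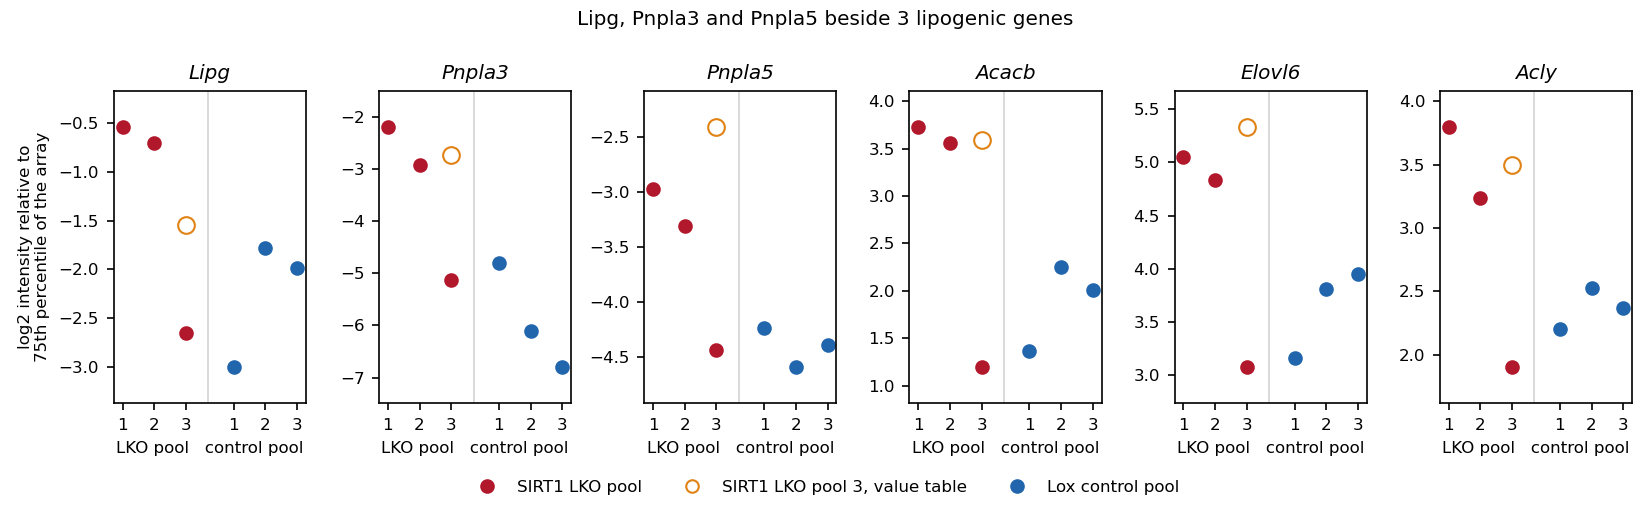
Log2 intensity minus the array's 75th percentile (vertical axis, its own range in each panel) for Lipg, Pnpla3 and Pnpla5 beside the lipogenic genes Acacb, Elovl6 and Acly. SIRT1 LKO pools 1 to 3 stand left of Lox control pools 1 to 3, and the open circle is SIRT1 LKO pool 3 in the value table. In each panel SIRT1 LKO pools 1 and 2 lie above every control, and the scanner value of pool 3 lies below at least 1 control.

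Genes that control lipases in the circulation differed little. Of 14 tested intravascular lipase regulators, 7 were higher and 7 lower, with a median of -0.02, and 0 passed. At an unadjusted p under 0.05 there were 2, against 20.6% of all genes. Furin, a proprotein convertase that cleaves lipoprotein lipase and endothelial lipase, was 5.80, 5.56 and 5.78 in SIRT1 LKO pools 1, 2 and 3, against 5.30, 5.47 and 5.30 in the Lox control pools. The groups did not overlap, and the difference was 0.35 (SE 0.11, adjusted p = 0.156). Apoa5, an apolipoprotein that promotes lipoprotein lipase activity, differed by 0.25 (adjusted p = 0.186), and Lmf2, a relative of the lipase maturation factor Lmf1, by -0.27 (adjusted p = 0.315).

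Cofactors and esterases of intracellular lipolysis were spread on both sides of 0, with 9 of 17 higher, 8 lower and a median of 0.01. None passed with all pools, and 5 of the 17 were at an unadjusted p under 0.05, against 20.6% of all genes. Plin4, a lipid-droplet coat protein, was 1.87, 0.97 and 1.57 in SIRT1 LKO pools 1, 2 and 3, against -0.06, 0.63 and 0.86 in the Lox control pools. The groups were apart by the scanner files (difference 1.0, SE 0.31, adjusted p = 0.151) and overlapped with the value-table level of pool 3, 0.14 (difference 0.52, adjusted p = 0.496). Abhd12, a lysophosphatidylserine lipase, was 0.57, 0.59 and 1.04 in SIRT1 LKO and 1.17, 1.16 and 1.24 in Lox control. Its difference of -0.46 (SE 0.15, adjusted p = 0.159) passed without pool 3, at -0.61 (adjusted p = 0.0477). In that setting 2.96% of all probes passed. Faah, fatty acid amide hydrolase, differed by -0.35 (adjusted p = 0.148).

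Pnpla2, adipose triglyceride lipase, belonged to this list and to the next. It was 4.99, 4.93 and 4.90 in SIRT1 LKO pools 1, 2 and 3, against 4.64, 4.53 and 4.79 in the Lox control pools. All SIRT1 LKO pools were above the controls, by a difference of 0.29 (SE 0.10, adjusted p = 0.184), and pool 3 overlapped with them in the value table. Of 20 other lipase and patatin-like genes listed, 9 were tested, 5 higher and 4 lower, with a median of 0.08 and 0 past the threshold. Cel, the bile-salt-activated lipase, differed by -0.42 by the scanner files (adjusted p = 0.177). It differed by -0.10 with the value table (adjusted p = 0.731), where the groups overlapped, and by -0.27 without pool 3 (adjusted p = 0.103). Daglb, a diacylglycerol lipase, differed by 0.27 (adjusted p = 0.238). Cel is also a pancreas marker and counts in the results of that list. Of the pancreas markers, 5 of 5 tested were lower, Cel included. Among them Cela2a differed by -0.03 (adjusted p = 0.961), by 0.48 with the value table and by 0.23 without pool 3. Summed levels, again with Cel, were 0.505 to 0.658 in SIRT1 LKO and 0.675 to 0.737 in Lox control. The value table gave pool 3 a sum of 0.701, within the control range. Pnlip was above background on no array, and the part of the other pancreas markers in the Cel value was not tested.

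The lysosomal genes did not share the lower signal of Lipa as a group. Of 17 tested, 10 were lower and 7 higher, with a median of -0.03, and 0 passed. The groups were without overlap in 9 of the 17, against 28.9% of genes, with SIRT1 LKO below in 6, against 13.6% of genes, and above in 3. With the value-table level of pool 3 it was 7 of the 17, with 4 below and 3 above, against 34.1% of genes. Hexa, the alpha subunit of beta-hexosaminidase, was 3.44, 3.28 and 3.24 in SIRT1 LKO pools 1, 2 and 3, against 3.73, 3.66 and 3.66 in the Lox control pools. All SIRT1 LKO pools were lower, by a difference of -0.36 (SE 0.10, adjusted p = 0.126). The value table gave -0.23 (adjusted p = 0.250), and leaving out pool 3 gave -0.32 (adjusted p = 0.0952). Gla, alpha-galactosidase A, differed by -0.35 (adjusted p = 0.170). Ctsl, the protease cathepsin L, differed the other way, by 0.30 (adjusted p = 0.141).

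**Figure D4:**
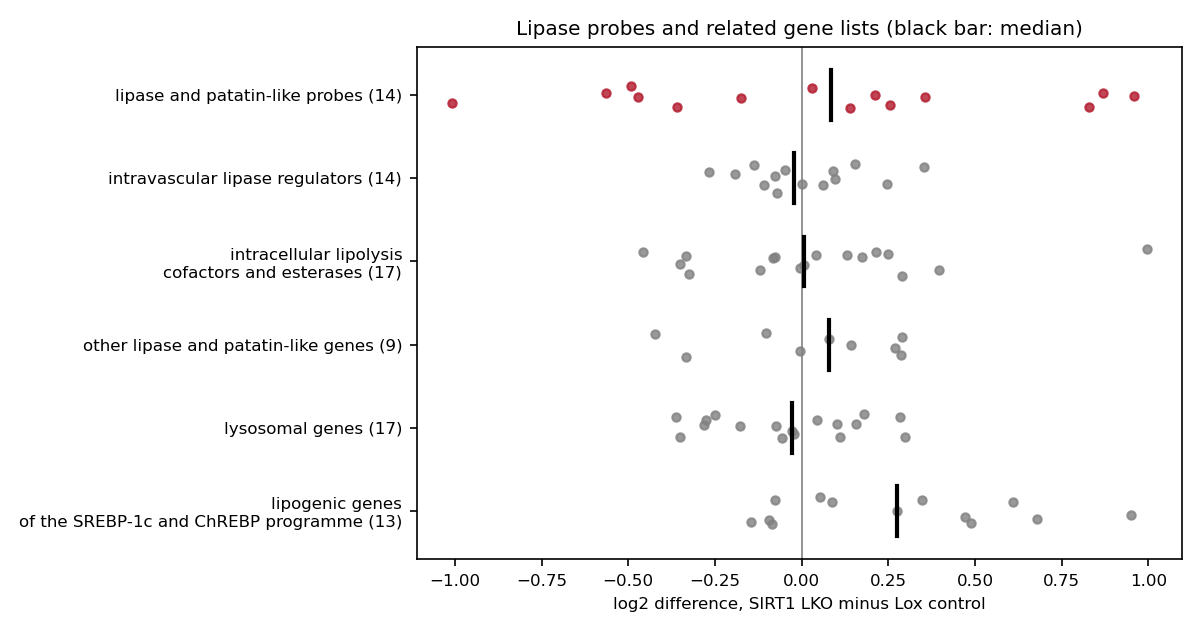
Log2 difference, SIRT1 LKO minus Lox control (horizontal axis), for the 14 tested lipase and patatin-like probes (red) and for the tested genes of 5 related lists (grey), with the number tested in brackets and a black bar at each median. The list medians lie between -0.03 and 0.27, and the lipase probes extend from -1.01 to 0.96.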

How the data were processed

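Per the submitters' processing notes, spot intensity was written by Agilent Feature Extraction 9.5. The processed intensity is background-subtracted and detrended, per the file headers, and the scanner files also hold deposited flags of 0 or 1 for background, saturation and outliers. The deposited value table holds a linear intensity per probe made with the Rosetta Resolver error model, per the labels. Its column medians were 62.0, 62.5 and 62.6 for SIRT1 LKO pools 1 to 3 and 74.5, 62.5 and 62.9 for Lox control pools 1 to 3. In 5 pools its scale equalled the scanner signal, with no centring. How its column for SIRT1 LKO pool 3 was made is unknown here (median ratio to the scanner file 0.719).

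From the scanner files, spots of genes were kept, those flagged as outliers became missing and log2 was taken. Spots of 1 probe were averaged, and each array's 75th percentile was then subtracted. Probes well above background on all 3 arrays of a genotype were fitted with limma 3.58.1 in R 4.3.3 (lmFit, eBayes, genotype only, two-sided, Benjamini-Hochberg, threshold 0.05). In lists, the probe with the highest mean stood for its gene. Names came from RefSeq accessions for 22951 probes, from a symbol in the file for 6659 and a synonym for 3109, and otherwise from the file. With 3 arrays a group, precision is set by their number. The fit was tested on simulated data.

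Members, lists and markers were chosen with earlier results of these data known. Genes named are every member, Sirt1, the 3 smallest p-values of each list and any gene past the threshold, and the nearest profiles. Car3, Cfd, Fabp4, Pparg, Cela2a, the macrophage markers and the dim markers were named after their values were seen. Alternatives were normexp, quantile and median scaling, other filters, 1 probe a gene, slide and replicate blocks, the value table and each pool left out. Deviations of same-numbered pools correlated at 0.0090, -0.0432 and -0.0932, so the numbers were not taken as pairs. Figures were drawn with matplotlib 3.10.9.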

Additional observations from a re-analysis of the deposited data

How the results depend on the processing

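Of 218 values of lipase probes under 16 alternatives, 207 kept their direction and side of the threshold, 3 gained a call and 8 changed sign. Sign changes were those of Lipe probe 1 with normexp (0.02), Mgll probe 2 with normexp and quantile scaling (-0.04 each) and when a replicate was left out (-0.05 to 0.165), Lpl probe 2 with the value table (0.07), and Pnpla7 with the value table (0.06) and when a replicate was left out (-0.293 to 0.04). The cause was not tested. Lipase probes called numbered 1 with the value table and 0 to 2 with a replicate left out. Lipogenic genes called numbered 3 with the value table and 0 to 2 with a replicate left out, and intracellular lipolysis genes 0 to 1. Of all probes, against 15, the number called was 24 with 1 probe a gene (16018 tested), 49 with probes above background on all 6 arrays, a filter that gives Pnpla5 no value, 308 with the value table, and 0 with no filter, normexp, or the slide as a random block (limma, 6859, 1568 and 2632 at an unadjusted p under 0.05). With the replicate number as a block, which the data do not bear out as a pairing, 0 were called (4367 unadjusted). It was 0 without any one of the controls or SIRT1 LKO pools 1 or 2 (3188 to 4492 unadjusted) and 698 without SIRT1 LKO pool 3. Signal near background limits Pnpla3 and Pnpla5.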
